A study of Mus musculus with 11 samples.

Results

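A set of 7 Sox transcription factor genes was followed in the open chromatin of fetal mouse lung epithelium: Sox2, Sox9, the SoxC genes Sox4 and Sox11, and the SoxD genes Sox5, Sox6 and Sox13. Their regions were chosen by position, as the ATAC-seq peaks whose nearest protein-coding gene body, at most 100 kb away, was one of the 7 genes. Of 83262 tested regions in the genome, 148 were theirs. The regions were placed by the peaks of all 11 libraries together, and the difference between genotypes was not used to choose them. The genes themselves were picked by family and by biology, with it already known that Sox5 had many changed regions. The counts given for Sox5, and the totals of the 7 genes that include it, are thus a description.

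The series compared chromatin accessibility between epithelium lacking Prdm3 and Prdm16, a pair of related zinc finger regulators, and control epithelium. In ATAC-seq a transposase cuts and tags DNA where chromatin is accessible. Cells came from lungs of E17.5 fetuses and were enriched on magnetic beads against EpCAM, an epithelial surface protein. Per the labels, 50000 cells were captured and their nuclei tagmented. The Prdm3/16KO group (5 libraries) had floxed Prdm16 and floxed Prdm3 (gene symbol Mecom) deleted with the ShhCre allele, which is active where Shh is expressed and so recombines in lung epithelium. The Control group (6 libraries) came, per the labels, from the same kind of cross: Prdm3fl/flPrdm16fl/wtShhCre+ males and Prdm3fl/flPrdm16fl/fl females. The labels do not say which alleles the control fetuses carried, Cre included, whether fetuses were pooled, or whether each library was 1 animal. P-values thus measure the spread between these libraries, which may be technical in part.

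Sox proteins bind DNA through an HMG box, which bends the helix and often acts together with partner factors. In the lung epithelium Sox2 marks the proximal airway and Sox9 the growing distal tips, from which alveolar cells arise, and Sox9 falls as the tips differentiate. SoxC proteins are activators common in immature cells. SoxD proteins have a coiled coil and no activation domain of their own, and Sox5 and Sox6 are best known as partners of Sox9 in cartilage.

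The promoters of Sox2, Sox4 and Sox11 lay in tested regions. The 250 bases upstream of each of these starts are shown first (RefSeq, build mm10, read on the strand of the gene). The promoter window of Sox13 and some of those of Sox6 also overlapped tested regions and are not shown. The Sox2 window is chr3:34649745-34649994 (plus strand), the Sox11 window chr12:27342719-27342968 (minus strand) and the Sox4 window chr13:28953700-28953949 (minus strand). Capitals mark every match, on either strand, to the 6 motifs searched.
Sox2 promoter: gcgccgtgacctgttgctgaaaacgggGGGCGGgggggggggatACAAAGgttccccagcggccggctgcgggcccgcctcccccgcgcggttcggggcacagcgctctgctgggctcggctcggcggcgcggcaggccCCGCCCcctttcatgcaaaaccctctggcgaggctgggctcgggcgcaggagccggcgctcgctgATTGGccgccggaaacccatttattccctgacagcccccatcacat
Sox11 promoter: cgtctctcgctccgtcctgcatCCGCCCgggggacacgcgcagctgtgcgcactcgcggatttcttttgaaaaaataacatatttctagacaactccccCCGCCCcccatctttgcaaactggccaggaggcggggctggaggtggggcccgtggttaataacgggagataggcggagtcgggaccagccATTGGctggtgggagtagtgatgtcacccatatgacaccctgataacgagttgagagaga
Sox4 promoter: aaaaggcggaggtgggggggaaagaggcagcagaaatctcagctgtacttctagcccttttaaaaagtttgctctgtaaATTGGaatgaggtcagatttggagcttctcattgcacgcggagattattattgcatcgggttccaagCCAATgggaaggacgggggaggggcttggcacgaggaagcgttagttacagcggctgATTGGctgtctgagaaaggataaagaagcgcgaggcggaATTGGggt

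These motifs were the CCAAT box, the GC box GGGCGG, the TATA box TATAAA, the SOX core ACAAAG, a further SOX core written ACAATG, and the NKX2 core CAAGTG. None of the 6 overlapped another in these windows. The Sox4 promoter held 4 CCAAT boxes and no GC box. The Sox2 promoter had 2 GC boxes, 1 CCAAT box and 1 match to ACAAAG, and the Sox11 promoter 2 GC boxes and 1 CCAAT box. Of 32817 RefSeq promoter windows of this length, 33.8% held a CCAAT box, 32.7% a GC box, 16.5% the core ACAAAG, 10.7% the core ACAATG, 11.6% the NKX2 core and 12.4% a TATA box. G and C made up 72.0% of the Sox2 window, 58.0% of the Sox11 window and 50.8% of the Sox4 window. How open these starts were in each genotype is given below with each gene.

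Peaks were deposited as lists without read counts, so the depth is unknown. The lists held 72935 to 85704 peaks in Prdm3/16KO and 79525 to 112297 in Control, and the 72935 strongest peaks of each were used. The -log10 p of the weakest peak used was 2.00 to 14.0 in Prdm3/16KO and 6.59 to 35.6 in Control, so more weak control peaks were left out. The rank score of a region comes from the place of its peak in that order, with 1 at the top of a library's list, values near 0 at its end, and 0 for no peak. Here and below, no peak means none among the 72935 used, and a weaker peak may stand in the deposited list. Of 8 epithelial marker genes, 7 had a peak within 1 kb of a gene end in every library, and the 8th, Cldn18, had none in any. The best scores at the 8 genes summed to 4.54 to 4.99 in Prdm3/16KO and 4.73 to 5.29 in Control. For 8 endothelial genes, 5 of them without a peak in any library (Pecam1, Cdh5, Tie1, Sox17 and Sox18), this sum was 0.985 to 1.44 in Prdm3/16KO and 1.41 to 1.92 in Control. For 8 mesenchymal genes (Pdgfra, Tcf21 and Dcn at 0) it was 1.18 to 2.03 in Prdm3/16KO and 1.26 to 2.20 in Control. For 8 immune genes (6 at 0, Ptprc among them) it was 0.699 to 0.784 in Prdm3/16KO and 0.699 to 1.11 in Control. For 8 cartilage genes (Acan, Matn1 and Col9a1 at 0) it was 0.405 to 0.975 in Prdm3/16KO and 0.545 to 1.07 in Control. Their part in the results was not tested. A smaller share of open cells and a less open site in each cell cannot be told apart in bulk libraries.

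The knockout had both less and more open regions around 5 of the 7 genes. At Sox9 gains alone were called, and at Sox2 losses alone, though the calls at both changed with the settings, as given with each gene. Of 148 regions, 35 were lower and 24 higher in Prdm3/16KO (limma adjusted p below 0.05 over all regions), 39.9% in all, against 37.8% of all 83262 regions. By direction 23.6% were lower and 16.2% higher, against 20.8% and 17.0% of all regions, so these shares were near those of the genome. The median difference in score (Prdm3/16KO minus Control) was -0.0326 at the 7 genes and -0.0208 over all regions. The split between losses and gains moved with the scaling, to 30 lower and 30 higher with each library's scores centred on its mean, and to 41 lower and 19 higher with the lists as deposited. Those 148 regions lay in 119 stretches of overlapping peaks, so neighbouring regions can share a peak. When each stretch was taken as 1 region, 56 of the 59 calls kept their direction and call, and none turned to the opposite call.

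**Figure D1:**
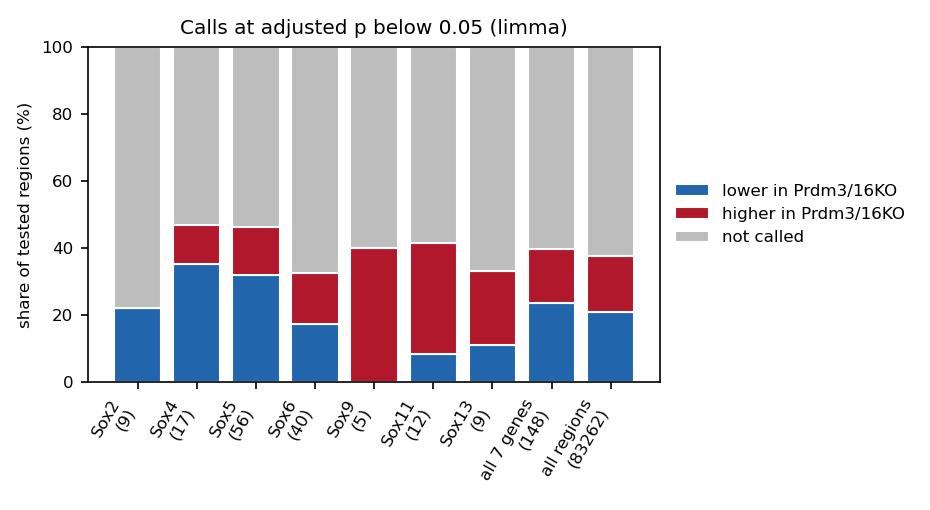
Share of tested regions called lower or higher in Prdm3/16KO, or not called, for each of the 7 Sox genes, for the 7 together (148 regions) and for all 83262 regions; numbers of regions are in brackets. The 7 genes together had 23.6% lower and 16.2% higher regions, close to the 20.8% and 17.0% of all regions, while single genes lay on both sides.

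Scores of the 2 genotypes did not overlap in 22 lower and 15 higher regions, with 12.1% and 10.9% of all regions in these classes. A peak was present in all 5 Prdm3/16KO libraries and no Control at 4 regions, and in all 6 Control libraries and no Prdm3/16KO at 7 regions (3.89% and 2.94% of all regions). By Fisher's exact test on presence, 52 regions could pass. Of these, 20 were present in fewer Prdm3/16KO libraries and 7 in more, 38.5% and 13.5%, against 23.9% and 23.3% of all such regions. Sox5 gave 10 of the 20 and 4 of the 7. At 49 regions every library had a peak (33.1%, against 43.8% of all regions), and 11 of these were lower and 11 higher. Regions were tested only with a peak in at least 3 libraries: 176 regions had a peak in any library, and 18 had exactly 3, 10 exactly 2 and 18 exactly 1. Among the tested regions 11 had peaks only in Prdm3/16KO and 20 only in Control, and these entered through the genotype in which they were open.

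**Figure D2:**
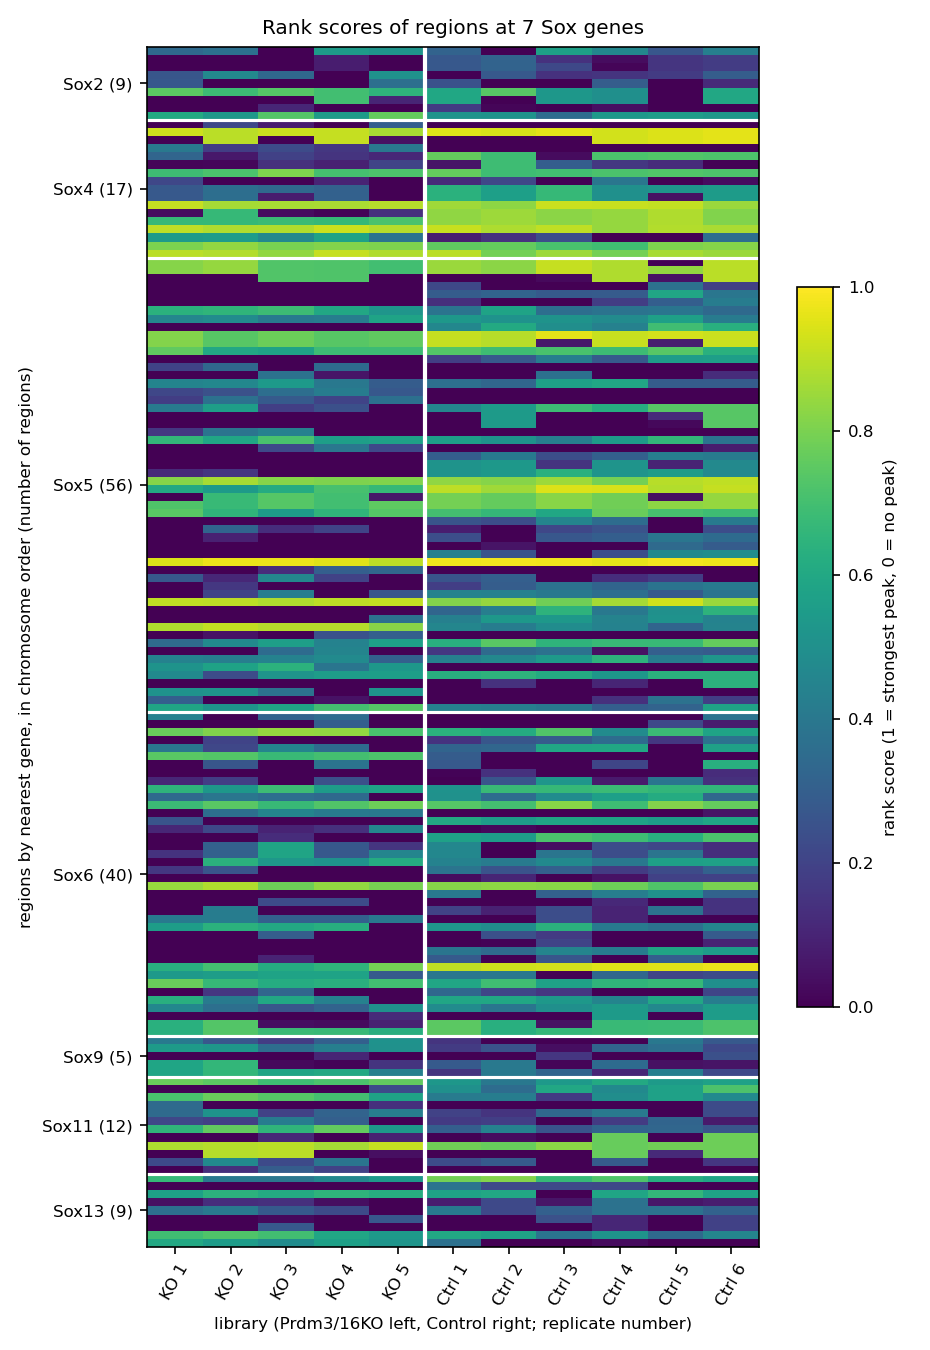
Rank score of each of the 148 regions (rows, by gene and in chromosome order) in each library (columns, 5 Prdm3/16KO left and 6 Control right), on a colour scale from 0 (no peak) to 1 (strongest peak of the library). Dark rows on one side of the line are regions without a peak in that genotype, as at 7 regions in all Prdm3/16KO libraries with peaks in all controls.

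Most of these regions lay inside genes, chiefly the long Sox5 and Sox6. There were 85 in gene bodies, of which 24 were lower and 11 higher. Of the 85, Sox5 held 48 (17 lower and 6 higher) and Sox6 held 34 (6 lower and 5 higher). Another 47 lay between genes, of which 9 were lower and 11 higher. The remaining 16 lay within 1 kb of a gene end, of which 2 were lower and 2 higher. The called share was 41.2% in gene bodies and 42.6% between genes, against 43.7% and 42.5% of all regions in these classes. At gene ends it was 25.0% (4 of 16), against 16.2%. The region with the highest mean score lay inside Sox5 at 144620989 to 144621388 of chromosome 6, at 0.947 ± 0.0294 in Prdm3/16KO and 0.976 ± 0.00668 in Control (SD, n = 5 and 6), a difference that did not pass (limma adjusted p = 0.0619). The second, 74.8 kb from Sox4 at 28873928 to 28874327 of chromosome 13, was slightly lower at 0.904 ± 0.0209 in Prdm3/16KO than the 0.948 ± 0.0107 in Control (limma adjusted p = 0.00385). Both were chosen after their values were seen.

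Sox2, the proximal airway factor (gene 20674, chromosome 3, 34649995 to 34652461), kept an open start in the knockout. The region over its start and promoter, at 34649677 to 34650076, scored 0.748, 0.687, 0.735, 0.699 and 0.652 in the Prdm3/16KO libraries and 0 to 0.741 in Control, with a median of 0.562. The other 5 controls lay between 0.499 and 0.741 and control replicate 5 had no peak there, and the genotypes overlapped. The difference of 0.210 ± 0.102 (SE) did not pass (limma adjusted p = 0.125), and it was 0.111 without that control (limma adjusted p = 0.0651). Of 9 regions 2 were lower and 0 higher by limma, while Fisher's exact test also called 2 lower and 0 higher. Both lay side by side in a single stretch of peaks 73.6 kb from the gene.

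The greater fall at Sox2, at 34576166 to 34576565, was to a score of 0 in 4 Prdm3/16KO libraries and 0.0815 in replicate 4, against 0.0152 to 0.320 in Control, median 0.198. All of these are weak peaks, and the ranges overlapped through control replicate 4. The difference was -0.177 ± 0.0561 (SE, limma adjusted p = 0.0236). It missed the threshold without Prdm3/16KO replicate 1, 2 or 3 (limma adjusted p = 0.0506, 0.0506 and 0.0505) with centred scores (limma adjusted p = 0.0501) and with the replicate block (limma adjusted p = 0.0761). The count for Sox2 was 1 lower and 1 higher of 7 with overlapping peaks merged, 0 and 1 of 9 with centred scores, and 0 and 0 with the replicate block. With 1 library left out it ranged over 0 to 2 lower and 0 to 2 higher: 0 and 0 without Prdm3/16KO replicate 1 or 3, 0 lower and 1 higher without replicate 2, 2 and 2 without replicate 4, and 1 and 0 without replicate 5 or Control replicate 1. With the lists cut to 36467 peaks, the region at the Sox2 start was called higher (difference 0.253, limma adjusted p = 0.0186), and of the 3 Sox2 regions then tested 2 were higher and 0 lower.

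Sox9, the distal tip factor (gene 20682, chromosome 11, 112782210 to 112787757), was more open in the knockout at both regions called. Of 5 regions 2 were higher and 0 lower by limma. None of the 5 could pass Fisher's exact test on presence, and 3 had a peak in every library. Among these 3, the regions at 112840076 and 112840597 shared a single stretch of peaks. The region 86 bp from a gene end, at 112781924 to 112782323, scored 0.548, 0.528, 0.357, 0.431 and 0.507 in Prdm3/16KO, against 0.0369 to 0.369 in Control, median 0.238. The genotypes overlapped only by the lowest Prdm3/16KO library, replicate 3, and the highest control, replicate 5. The difference was 0.244 ± 0.0667 (SE, limma adjusted p = 0.0105). With the lists as deposited it was 0.128 (limma adjusted p = 0.160), and with a -log10 q of at least 5 it was 0.141 (limma adjusted p = 0.145). With lists of 36467 peaks it was 0.0328 (limma adjusted p = 0.347). None of these passed, and under each of these cuts 1 Sox9 region was higher and 0 lower.

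A region 53.0 kb from Sox9, at 112840597 to 112840996, scored 0.586, 0.664, 0.585, 0.602 and 0.434 in Prdm3/16KO and 0.106 to 0.427 in Control, median 0.272. Every Prdm3/16KO library lay above every control. The difference was 0.302 ± 0.0699 (SE, limma adjusted p = 0.00380). Sox9 is known to be controlled by elements spread over a wide gene desert, and 16 tested regions had it as nearest gene beyond 100 kb, 5 of them lower and 6 higher, so the 5 regions described here are a small part of its surroundings.

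**Figure D3:**
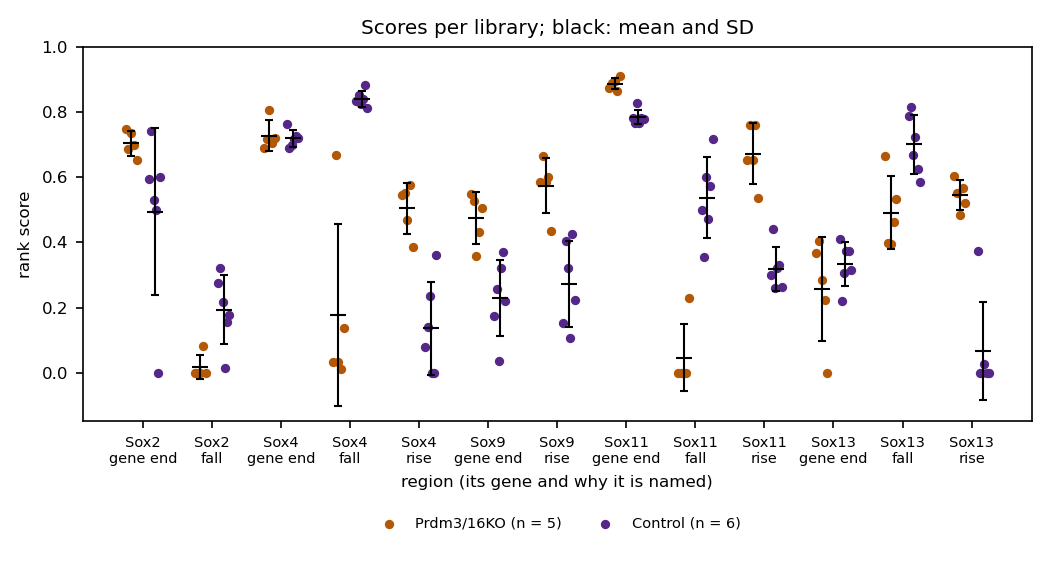
Rank score per library (points) with mean and SD (black) at regions of Sox2, Sox4, Sox9, Sox11 and Sox13, Prdm3/16KO left and Control right in each pair: the strongest region within 1 kb of a gene end, and the greatest called fall and rise. Prdm3/16KO libraries lie above all controls at the rises of Sox4, Sox9, Sox11 and Sox13 and below them at the falls of Sox4 and Sox11, while at the Sox4 gene end both genotypes lie near 0.72. The merged stretch of peaks that holds the Sox4 fall differed by -0.160.

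Sox4 (gene 20677, chromosome 13, 28948919 to 28953699), a SoxC activator, had a peak in all 11 libraries at 10 of its 17 regions. Its start and promoter, at 28953662 to 28954061, scored 0.690, 0.717, 0.808, 0.704 and 0.721 in Prdm3/16KO and 0.689 to 0.764 in Control, median 0.719. The genotypes overlapped, and the difference of 0.00800 ± 0.0253 (SE) did not pass (limma adjusted p = 0.832). By regions, 6 were lower and 2 higher, but 4 of its 12 stretches of peaks held more than 1 region, and with stretches merged 3 of 12 were lower and 2 higher. A region 993 bp inside the gene end, at 28952506 to 28952905, was called lower by 0.439 (limma adjusted p = 0.00966), and its merged stretch differed by only 0.00800 (limma adjusted p = 0.822).

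The greatest fall by region at Sox4 lay 35.1 kb away, at 28988566 to 28988965, with scores of 0.0339, 0.668, 0.0317, 0.0103 and 0.137 in Prdm3/16KO against 0.812 to 0.882 in Control, median 0.836. Every Prdm3/16KO library was below every control, replicate 2 by the least. The difference of -0.665 ± 0.0981 (SE, limma adjusted p = 1.09e-04) did not hold under other cuts of the lists. It was 0.0156 with the lists as deposited (limma adjusted p = 0.950) and -0.142 with a -log10 q of at least 5 (limma adjusted p = 0.577). The stretch of overlapping peaks that holds it, 28988637 to 28989442, differed by -0.160 (limma adjusted p = 7.03e-06). The neighbouring region in that stretch, at 28989018 to 28989417, scored 0.668 to 0.716 in Prdm3/16KO and 0.812 to 0.882 in Control. The stretch thus had a peak in every library of both genotypes. In the other direction, a region 78.2 kb away at 29031748 to 29032147 scored 0.544, 0.553, 0.468, 0.575 and 0.385 in Prdm3/16KO, against 0 to 0.362 in Control, median 0.110. All Prdm3/16KO libraries were above all controls, with a difference of 0.369 ± 0.0734 (SE, limma adjusted p = 0.00128). With lists of 36467 peaks that call was lost (limma adjusted p = 0.0772).

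Sox11 (gene 20666, chromosome 12, 27334268 to 27342718), the other SoxC gene here, had 4 higher and 1 lower of 12 regions. Its start and promoter, at 27342564 to 27342963, scored 0.875, 0.889, 0.895, 0.866 and 0.912 in Prdm3/16KO and 0.766 to 0.827 in Control, median 0.781. The genotypes did not overlap. The difference was small, 0.103 ± 0.0146 (SE, limma adjusted p = 7.45e-05), and among the starts of Sox2, Sox4 and Sox11 this was the one called. A region 11.6 kb away at 27322475 to 27322874 rose by more, to 0.653, 0.760, 0.654, 0.759 and 0.536 in Prdm3/16KO, against 0.259 to 0.442 in Control, median 0.311 (difference 0.353 ± 0.0536, SE, limma adjusted p = 1.39e-04).

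The single loss near Sox11 was a region 79.9 kb away at 27254167 to 27254566. It had no peak in 4 Prdm3/16KO libraries and 0.230 in replicate 5, against 0.355 to 0.719 in all 6 controls, median 0.537. The difference was -0.491 ± 0.0721 (SE, limma adjusted p = 1.05e-04), and with lists of 36467 peaks it did not pass (limma adjusted p = 0.132). A higher region lay 18.4 kb from it, at 27235743 to 27236142, which at 98.3 kb was also the member closest to the 100 kb limit, with 0.737 ± 0.0339 in Prdm3/16KO and 0.532 ± 0.0705 in Control (SD, n = 5 and 6). Just outside the limit, at 100116 bp, a region of Sox5 scored 0.130 ± 0.220 in Prdm3/16KO and 0.0678 ± 0.106 in Control. Beyond 100 kb Sox11 was the nearest gene of 27 further regions, of which 13 were higher and 4 lower. In all, 104 regions beyond 100 kb were nearest to the Sox genes followed here, 33 of them higher and 22 lower. Gains and losses were 5 and 5 of 21 at Sox2, 5 and 4 of 20 at Sox4, and 3 and 3 of 15 at Sox5. They were 6 and 5 of 16 at Sox9, and 1 and 1 of 5 at Sox6. The called share of all regions beyond 100 kb was not worked out, so these counts are a description.

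Sox5 (gene 20678, chromosome 6, 143828425 to 144782287), a SoxD gene of 954 kb, had 56 regions, 48 inside the gene, 2 at a gene end and 6 outside. By limma 18 were lower and 8 higher, 32.1% and 14.3%, against 20.8% and 17.0% of all regions. Its deposited lists held 33 to 49 peaks in Prdm3/16KO and 54 to 83 in Control. Among the peaks used these were 36.4 ± 3.65 in Prdm3/16KO and 44.5 ± 5.68 in Control (SD, n = 5 and 6). At 6 regions all controls and no Prdm3/16KO library had a peak, and at 3 regions the reverse held. Some of these shared a stretch of peaks with other regions. The gain at 144153725 to 144154124 was 0.303 (limma adjusted p = 2.82e-04), and its merged stretch differed by only 0.0259 (limma adjusted p = 0.788). The loss at 144370329 to 144370728 shared its stretch with the region at 144370735, where some Prdm3/16KO libraries had a peak. With overlapping peaks merged, 19 of 46 were lower and 9 higher.

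Several losses inside Sox5 left no peak in the knockout. The greatest, at 144046531 to 144046930, had no peak in any Prdm3/16KO library and scores of 0.439 to 0.695 in Control, median 0.552 (difference -0.556 ± 0.0584, SE, limma adjusted p = 5.18e-06). At 144660813 to 144661212 no Prdm3/16KO library had a peak either, and Control scores were 0.327 to 0.647, median 0.463 (difference -0.491 ± 0.0660, SE, limma adjusted p = 4.78e-05). At 144370735 to 144371134 scores were 0.119 and 0.154 in Prdm3/16KO replicates 1 and 2 and 0 in the others, against 0.472 to 0.636 in Control, median 0.526 (difference -0.483 ± 0.0545, SE, limma adjusted p = 9.88e-06). The genotypes did not overlap at any of these 3 regions.

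Gains at Sox5 stood near its upstream end as well as deep in the gene. On the minus strand the upstream end is the one of higher coordinate, and RefSeq also lists a Sox5 start far inside the gene. At 144778897 to 144779296, 3.19 kb inside that end, all Prdm3/16KO libraries had a peak (0.515, 0.575, 0.643, 0.388 and 0.528) and no control did (difference 0.530 ± 0.0542, SE, limma adjusted p = 4.06e-06). At 144710762 to 144711161, 71.3 kb inside, a region open in every library scored 0.880, 0.908, 0.887, 0.890 and 0.823 in Prdm3/16KO, against 0.321 to 0.486 in Control, median 0.444 (difference 0.449 ± 0.0339, SE, limma adjusted p = 2.63e-07). A region 6.59 kb outside that end, at 144788673 to 144789072, had a peak in 4 of 5 Prdm3/16KO libraries, with scores up to 0.519. No control had one among the peaks used (difference 0.384 ± 0.0859, SE, limma adjusted p = 0.00301). Among these 3, the last alone had overlapping genotypes, through Prdm3/16KO replicate 4, which had no peak. With lists of 36467 peaks, in which weaker peaks are missing, 4 of these Sox5 calls were lost: the falls at 144046531 and 144370735 and the rises at 144778897 and 144788673 (limma adjusted p = 0.0930, 0.132, 0.0766 and 0.575).

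The upstream end itself, at 144781554 to 144781953, scored 0.474, 0.233, 0.519, 0.551 and 0.557 in Prdm3/16KO and 0.528 to 0.645 in Control, median 0.634. The difference of -0.149 ± 0.0567 (SE) lay at the threshold without passing it (limma adjusted p = 0.0530). It was called lower with the lists as deposited (-0.178, limma adjusted p = 0.0117), a -log10 q of at least 5 (-0.191, limma adjusted p = 0.0115), lists of 36467 peaks (-0.181, limma adjusted p = 0.0134) and ranking by fold (-0.215, limma adjusted p = 0.0146). It also passed with overlapping peaks merged (limma adjusted p = 0.0420) and without Control replicate 4 or Prdm3/16KO replicate 4 or 5 (limma adjusted p = 0.0453, 0.0451 and 0.0394). Without Prdm3/16KO replicate 2 it was -0.0905 (limma adjusted p = 0.0833). Loss and gain came as close as 4.68 kb inside the gene, where the greatest fall neighboured a higher region at 144041851 to 144042250. Counted from this end, 6 of 19 regions within the first 238 kb were lower and 2 higher. From there to 477 kb 6 of 10 were lower and 0 higher, to 715 kb 2 of 12 were lower and 3 higher, and to the far end 3 of 8 were lower and 1 higher. Of all 35324 gene body regions in the genome, 8743 were lower and 6698 higher. Regions that share a stretch of peaks count separately here.

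**Figure D4:**
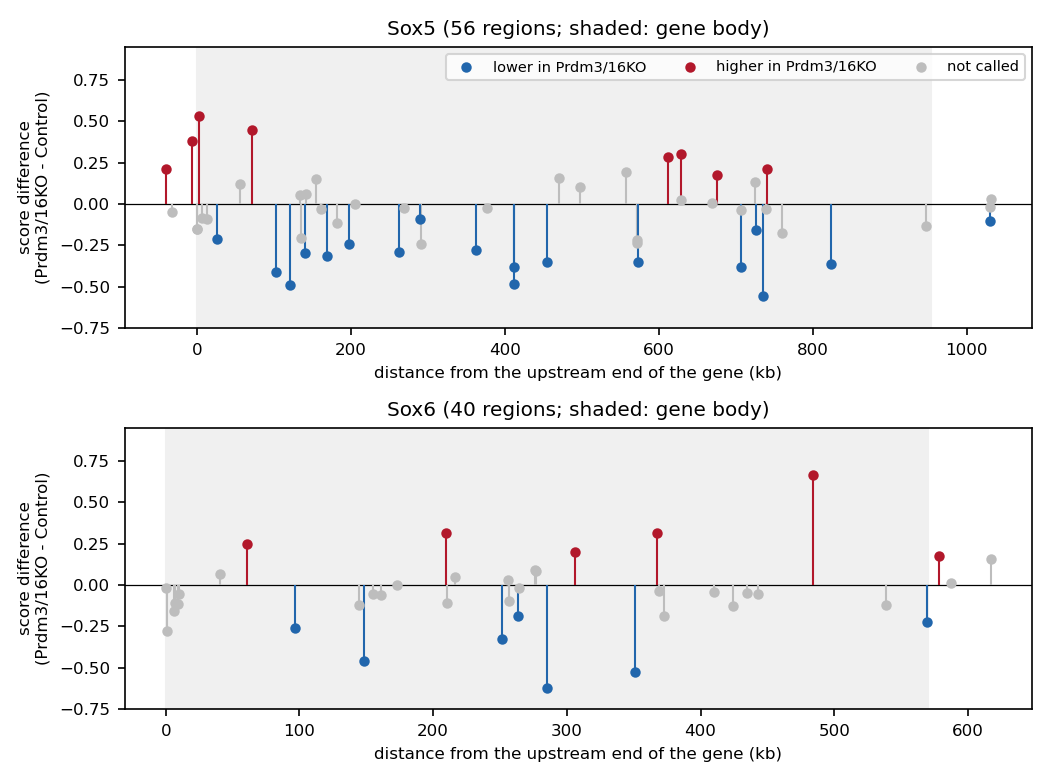
Difference in rank score (Prdm3/16KO minus Control, y axis) of each region of Sox5 and Sox6 against its distance in kb from the upstream end of the gene (x axis; negative lies outside the gene, shading is the gene body). Sox5 shows gains near its upstream end and again beyond 477 kb, and losses along the body down to -0.556, and Sox6 has its greatest gain of 0.667 at 484.1 kb and its greatest loss of -0.620 at 285.3 kb.

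Sox6 (gene 20679, chromosome 7, 115470872 to 116040776), the close relative and usual partner of Sox5, had 7 lower and 6 higher of 40 regions. Its upstream end, at 116040151 to 116040550, scored 0.633, 0.731, 0.680, 0.675 and 0.627 in Prdm3/16KO and 0.630 to 0.749 in Control, median 0.681. The genotypes overlapped, with a difference of -0.0183 ± 0.0295 (SE, limma adjusted p = 0.657). Larger differences lay inside the gene.

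The greatest gain of any of the 7 genes was in Sox6, at 115556479 to 115556878. It scored 0.745, 0.734, 0.677, 0.702 and 0.722 in Prdm3/16KO, while 5 controls had no peak and control replicate 1 scored 0.291 (difference 0.667 ± 0.0623, SE, limma adjusted p = 1.73e-06). At 115672874 to 115673273 a peak of 0.360 to 0.452 was present in 4 Prdm3/16KO libraries and none in replicate 1, and 1 control had a peak, at 0.0533 (difference 0.315 ± 0.0749, SE, limma adjusted p = 0.00455). At 115830834 to 115831233 scores were 0.414, 0.419, 0.307, 0.306 and 0.399 in Prdm3/16KO, and in Control 0.237 and 0.101 in replicates 3 and 4 and 0 in the others (difference 0.313 ± 0.0603, SE, limma adjusted p = 0.00100). In the last case the merged stretch differed by less, 0.178 (limma adjusted p = 0.0264).

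Losses of like size lay in the same gene. The region at 115755255 to 115755654 scored 0.128 in Prdm3/16KO replicate 3 and 0 in the other 4, against 0.551 to 0.715 in Control, median 0.661 (difference -0.620 ± 0.0539, SE, limma adjusted p = 9.10e-07). At 115689706 to 115690105 the score was 0.259 in Prdm3/16KO replicate 1 and 0 in the others, against 0.553 to 0.604 in Control, median 0.585 (difference -0.526 ± 0.0584, SE, limma adjusted p = 8.61e-06). At 115892651 to 115893050 no Prdm3/16KO library had a peak, and Control scores were 0.345 to 0.583, median 0.438 (difference -0.457 ± 0.0560, SE, limma adjusted p = 2.10e-05). All 3 kept the genotypes apart. In the lists as deposited 12 of 43 Sox6 regions were lower and 5 higher.

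Sox13 (gene 20668, chromosome 1, 133382300 to 133424459), the shortest SoxD gene, had 1 lower and 2 higher of 9 regions. Its upstream end, at 133424121 to 133424520, was a middling peak of 0.366, 0.404, 0.285, 0.224 and 0 in Prdm3/16KO and of 0.221 to 0.411 in Control, median 0.345 (difference -0.0783 ± 0.0732, SE, limma adjusted p = 0.424), and the difference was -0.0144 without Prdm3/16KO replicate 5, which had no peak (limma adjusted p = 0.874). The region 17.7 kb inside the gene at 133406524 to 133406923 fell to 0.665, 0.399, 0.396, 0.463 and 0.534 in Prdm3/16KO, against 0.585 to 0.816 in Control, median 0.696, with overlap through Prdm3/16KO replicate 1 (difference -0.210 ± 0.0568, SE, limma adjusted p = 0.0101). A region 88.4 kb outside, at 133512660 to 133513059, scored 0.604, 0.552, 0.485, 0.567 and 0.520 in Prdm3/16KO. There, control replicate 1 had 0.374 and replicate 4 had 0.0278, with no peak in the other 4 controls (difference 0.479 ± 0.0728, SE, limma adjusted p = 1.41e-04).

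Lists of related genes are set beside the 20.8% lower and 17.0% higher of all regions. Of 12 other Sox genes, 11 had a region, and 5 of their 25 regions were lower and 1 higher (20% and 4%), with no more than 1 call at any of these genes. Sox10, Sox17 and Sox18, of which the last 2 also stand in the endothelial list, had no peak within 1 kb of a gene end in any library. At 10 genes of distal tip progenitors, 30 of 106 regions were lower and 20 higher (28.3% and 18.9%), with the most calls at Spry2, a feedback inhibitor of FGF signalling (5 lower and 8 higher of 24). At 8 airway genes 6 of 43 were lower and 9 higher (14.0% and 20.9%), mostly at the Notch target Hes1 (4 lower and 6 higher of 25). At 8 partner and target genes of Sox factors 14 of 61 were lower and 6 higher (23.0% and 9.84%), with Tcf7l2, a partner of beta-catenin, at 2 lower and 5 higher of 17. Median differences were 0.0066, -0.0159, 0.0089 and -0.0263 in these 4 lists, against -0.0208 over all regions.

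A likeness between genes was measured as Pearson's r, over the 11 libraries, of the mean score of their regions, among 5143 genes with at least 5 regions. All libraries share their genotype split, and each value is a description. Closest to Sox5 were Greb1 and Tshz2 (r = 0.977 and 0.971), to Sox6 Bhlhe40 and Plekha2 (0.942 and 0.940), and to Sox4 Gpd2 and Ppm1l (0.942 and 0.937). Closest to Sox9 were Ccl20 and Tacc3 (0.937 and 0.929), and to Sox11 Cacnb2 and Atp9a (0.922 and 0.900). For Sox13 they were Tub and Ccdc32 (0.890 and 0.870), and for Sox2 BC052040 and Mien1 (0.863 and 0.861). The mean score of the regions of Sox9 was 0.338 ± 0.0866 in Prdm3/16KO and 0.180 ± 0.0514 in Control, and that of Sox5 0.317 ± 0.0212 in Prdm3/16KO and 0.391 ± 0.0406 in Control. For Sox2 it was 0.262 ± 0.0463 in Prdm3/16KO and 0.267 ± 0.0686 in Control (SD, n = 5 and 6). Regions that share a stretch of peaks count separately in these means.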

How the data were processed

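ATAC-seq peak lists of 5 Prdm3/16KO and 6 Control libraries were analysed. MACS2, deepTools and DiffBind 3, with genome build mm10, stand in the submitters' processing notes, where no roles are stated. For the aligner and the read filters, no name or setting is given in the sources used here. Units were read from the values. The score the authors deposited is a whole number from 540 to 1000 and was not used. The fold enrichment is a ratio of each peak over background in the authors' lists. The -log10 p and -log10 q deposited by the authors depend on depth and were used only to rank or filter peaks within a list.

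Each list was cut to its 72935 peaks of highest -log10 p and ranked. Windows of 400 bp around summits became regions, the better ranked of overlapping windows being kept. A peak overlapping a window by at least 100 bp, preferably with its summit inside, gave the score. Those present in 3 or more libraries were fitted with limma 3.58.1 (R 4.3.3; trend and robust options, genotype only) across all regions, with Benjamini-Hochberg adjustment at 0.05; Fisher's exact test compared presence between genotypes, region by region. The SE is limma's moderated SE. The fitting code was tested on simulated scores of normal spread, which lack the floor that missing peaks give real scores. Genes were 21887 protein-coding RefSeq genes on GRCm38.p6, the assembly called mm10; a summit inside several genes went to the shorter one. All 7 symbols matched, and 6 had promoter windows. Regions named are, per gene, the strongest within 1 kb of a gene end and the greatest called fall and rise, 3 of each for genes with over 20 regions. Members and lists were chosen with earlier results of these data known. Tables and figures were made in Python 3.11.15 with pandas 2.3.3, scipy 1.17.1, matplotlib 3.10.9 and numpy 2.4.6.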

Additional observations from a re-analysis of the deposited data

Results flagged for a closer look

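Of 68 sets of values (27 named regions and 7 peak counts in each genotype), 17 times a library stood apart from the rest of its group by Dixon's test. Chance gives about 1 in 20, and groups that are at 0 but for 1 library always stand out. At Sox2 these were the Prdm3/16KO score of 0.0815 in the lower region and the Control score of 0 at the start. At Sox4 they were Prdm3/16KO scores of 0.808 at the start and 0.668 in the region of the greatest fall. At Sox5 they were 0.233 in Prdm3/16KO and 0.528 in Control at the upstream end, and 0 in Prdm3/16KO at 144788673. The lowest Prdm3/16KO list had 33 Sox5 peaks. At Sox6 they were 0.291 in Control at 115556479, 0 in Prdm3/16KO and 0.0533 in Control at 115672874, and Prdm3/16KO scores of 0.259 and 0.128 at 115689706 and 115755255. At Sox11 they were 0.230 in Prdm3/16KO at 27254167, 0.827 in Control at the start, and 16 peaks in the highest Prdm3/16KO list. At Sox13 the value was 0.374 in Control at 133512660. All calls at these regions were kept when any 1 library was left out, except that of the lower Sox2 region.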

How the results depend on the processing

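With any 1 library left out, 32 to 38 regions of the 7 genes were lower and 22 to 26 higher, and 28589 to 30483 of all regions were called. Lists of 36467 peaks left 64 regions of the 7 genes, 14 of them lower, and 17229 called of all regions. Presence alone, by Fisher's exact test, called 20 lower, 7 higher and 11676 in all. It could pass at 52 regions of the 7 genes and 24732 of all regions, and it does not use the scores. Under the other alternatives (lists as deposited, -log10 q of at least 5, rank by fold, overlap of 200 bp, a peak in at least 2 or 5 libraries, merging, centring, limma without trend and robust options, genes within 50 kb) these counts stayed within 1.5 times. The lower share of calls at the 7 genes was 59.3%, and 68.3% with the lists as deposited, 67.7% with the q threshold, 46.7% with 36467 peaks, 50.0% with centring and 74.1% by presence. With the replicate block, 32 were lower, 23 higher and 27504 called in all; correlations between same-numbered libraries were -0.0234 to 0.139, and not every library correlated best with its own number, so the numbers show no pairing, and both Sox2 calls were lost (-0.180 at the greater fall, limma adjusted p = 0.0761).

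Over 27 named regions, 556 limma repeats kept direction and side of the threshold, 15 lost the call, 9 gained it and 6 turned direction. Of the 27, 14 could not pass Fisher's exact test on presence, 10 passed it and 3 did not. The turns were at the Sox4 start (-0.0259 with the lists as deposited, -0.0268 with the q threshold and -0.0120 to 0.0175 with 1 library left out, the lowest without Prdm3/16KO replicate 3), at the Sox4 region 28988566 (0.0156 with the lists as deposited) and at the Sox6 upstream end (0.0912 ranked by fold and 0.00142 with centring). Apart from the Sox4 region, none of these had been called. With 36467 peaks 7 of the 27 named regions were not tested, and with a peak in at least 5 libraries 1 was not. The cause was not tested. Depth is unknown, so a missing peak is not a measured 0.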
